A study of Mus musculus with 8 samples.

Results

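This account concerns the Toll-like receptors Tlr2, Tlr4, Tlr7, Tlr9 and Tlr13, the chaperones Unc93b1 and Cnpy3 that fold and move them, and the signalling proteins Myd88, Irak4 and Traf6 that act below them. The members were listed by name, and each was read from the probe set that the platform annotation assigns to that symbol alone. Of the 10 listed genes, 9 had such a probe set, 1 each, among 19938 genes in all, and Irak4 is not analysed here. Each of the 9 was kept whatever its level, since no filter on dim genes was applied.

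The study compared splenic hemophagocytes, macrophages that have taken up blood cells, with resting splenic macrophages. All mice were wild type C57Bl/6j males aged 8 weeks, dosed 4 times by intraperitoneal injection on alternate days. The hemophagocyte group received 37.5 ug of CpG1826 with 200 ug of the antibody clone 1B1.3A, which blocks the IL-10 receptor, and the resting group received 200 uL of PBS. From each mouse 20 target cells were laser-captured off a spleen touch preparation and pooled, and the amplified RNA was hybridised to Affymetrix mouse Gene ST 1.0 arrays, 4 per group. The labels do not say how many mice stand behind an array, so the spread between arrays may be partly technical. No array held macrophages without engulfed cells from treated mice, so engulfment cannot be told apart from CpG1826 and the antibody.

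Toll-like receptors are membrane sensors of microbial products. TLR2 and TLR4 sit at the cell surface and read lipoproteins and lipopolysaccharide, whereas TLR7, TLR9 and TLR13 sit in endosomes and read single-stranded RNA, unmethylated CpG DNA and bacterial ribosomal RNA. CpG1826 is a synthetic ligand of TLR9, and in mice TLR9 is carried by macrophages, B cells and dendritic cells. The receptors signal through the adaptor MyD88, the IRAK kinases and the ubiquitin ligase TRAF6 to NF-kappaB and interferon regulatory factors. IL-10 restrains this output.

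Arrays are named by group and replicate number. Their medians over all probe sets lay between 6.10 and 6.17 on the log2 scale. Hemophagocytes 3 and 5 stood apart, each holding many unusually high values: 154 and 159 genes there exceeded their 8-array median by over 1 log2 unit, against 7 to 30 genes on the other arrays. The 10 measured macrophage markers averaged 7.47 and 8.07 on those arrays, 6.64 and 6.75 on hemophagocytes 2 and 6, and 6.79 to 7.01 on resting arrays. The 9 red pulp macrophage markers averaged 6.19 and 6.54 on hemophagocytes 3 and 5, against 6.18 to 6.36 on the other arrays. The measured platelet markers had their highest means on hemophagocytes 3 and 5, at 7.32 and 7.12. Of these 6 markers only Pf4 peaked on either array. It read 10.35 and 9.11 there, against 5.49 to 7.41 on the other arrays. Array background was gauged from 1190 olfactory and vomeronasal receptor genes, whose 5th to 95th percentiles ran from 3.44 to 3.85 and from 7.42 to 7.81 over the arrays. None of the macrophage markers lay above that 95th percentile on all 8 arrays, and 5 of 10 did on at least 1. Lyz2, the lysozyme of macrophages, lay above it on 5 arrays, while Csf1r, the receptor for macrophage colony-stimulating factor, and Adgre1, which encodes F4/80, lay above it on 0. Fewer cells of a type and less RNA per cell cannot be told apart in such pools.

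None of the 9 measured genes differed between hemophagocytes and resting macrophages past the threshold, an adjusted p of 0.05 in limma over all 19938 genes (0 of 9, where 0.0100% of all genes passed). Tlr9, the receptor for the injected oligonucleotide, had a mean 1.13-fold lower in hemophagocytes, with groups that overlapped. Tlr13 had the largest difference of the 9, 1.40-fold higher, which rested mainly on hemophagocyte 5. Traf6 was 1.12-fold higher with groups that did not overlap. At an unadjusted p under 0.05, 1 of the 9 was higher (Traf6) and 0 were lower, where 1.53% of all genes were higher and 5.05% lower. The 9 had a median difference of -0.003 and a median absolute difference of 0.05, against -0.04 and 0.08 over all genes, and 4 of them lay above 0, or 44.4% against 36.1% of all genes.

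**Figure D1:**
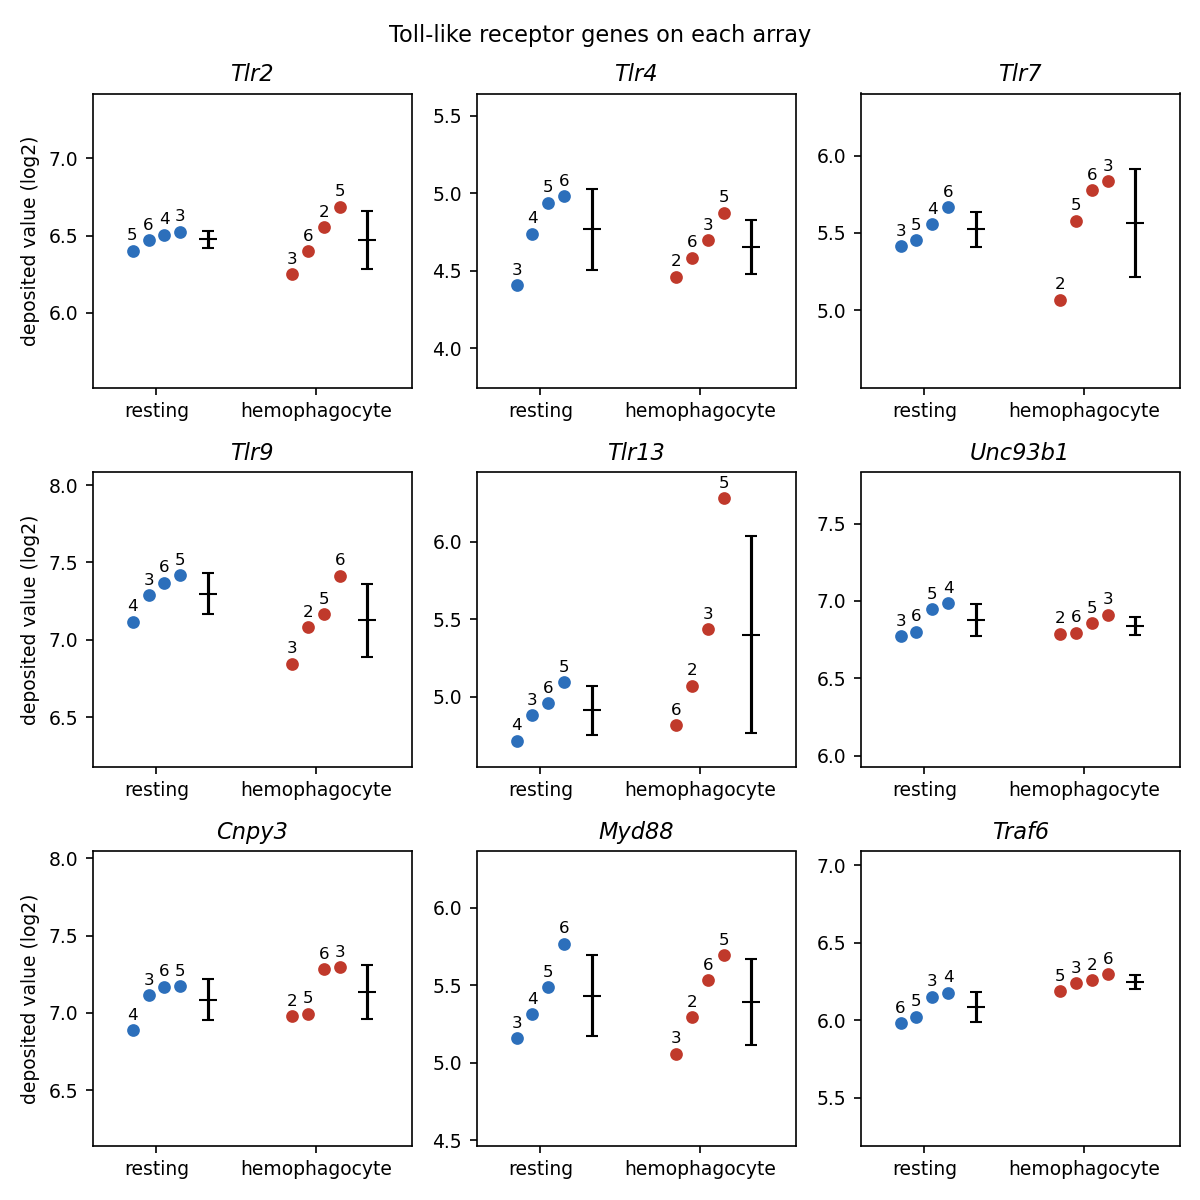
Deposited log2 value of each measured gene on the 8 arrays, resting macrophages in blue and hemophagocytes in red, with the replicate number above each point and the mean ± SD (n = 4) beside each group; all panels span the same number of log2 units. The groups overlap in each panel except that of Traf6, and hemophagocyte 5 stands above the other arrays for Tlr13 at 6.28.

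Tlr9 (probe set 10588479) read 7.08, 6.85, 7.17 and 7.42 on hemophagocytes 2, 3, 5 and 6. It read 7.29, 7.12, 7.42 and 7.37 on resting macrophages 3, 4, 5 and 6. The groups overlapped: the highest value of each was 7.42, and only hemophagocytes 2 and 3 lay below the lowest resting array. The means were 7.13 ± 0.24 in hemophagocytes and 7.30 ± 0.13 in resting macrophages (log2, SD, n = 4 each). The difference, hemophagocyte minus resting, was -0.17 (SE 0.12, limma adjusted p = 0.77), and its 95% interval ran from -0.43 to 0.09. Single arrays moved it by more than 1.5 times, to -0.08 without hemophagocyte 3 and to -0.27 without hemophagocyte 6. Without hemophagocytes 3 and 5 together it was -0.05, and with weights per array it was -0.09. With array background as a covariate it was 0.001. The background genes themselves averaged 5.75 on hemophagocyte 3 and 5.95 to 6.16 on the other arrays, and their median difference between the groups was -0.15, close to that of Tlr9; the part of background in the Tlr9 difference was not tested beyond that covariate.

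The probe set for Tlr9 lay in the upper part of the background range, with 80.8% to 90.4% of the olfactory and vomeronasal receptor genes below it on each array, and above the 95th percentile on 0 of 8 arrays. The same was true of the other measured members: each lay above that percentile on 0 of 8 arrays. Probe sets differ in their affinity for RNA, so this position does not show whether a transcript was present. B cells and plasmacytoid dendritic cells also carry Tlr9. The 8 measured B cell markers averaged 6.15 to 6.36 on hemophagocyte arrays and 6.26 to 6.41 on resting arrays. The 8 plasmacytoid dendritic cell markers averaged 6.80 to 6.95 and 6.85 to 6.92. Neither list had a member past the threshold in limma, and 0 members of either had an unadjusted p under 0.05. All 8 B cell markers lay below the 95th percentile of the background genes on each array, and of the plasmacytoid markers only Bst2, which interferon also induces, lay above it, at 9.23 on hemophagocyte 3.

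Tlr7 (10607870), the endosomal sensor of single-stranded RNA, read 5.07, 5.83, 5.58 and 5.78 on hemophagocytes 2, 3, 5 and 6. On resting macrophages 3, 4, 5 and 6 it read 5.42, 5.56, 5.45 and 5.67. Hemophagocyte 2 was the lowest array of all and hemophagocyte 3 the highest, with the resting arrays between them. The difference was 0.04 (SE 0.15, limma adjusted p = 0.96; 95% interval -0.29 to 0.37). It was 0.21 without hemophagocyte 2 and -0.05 without hemophagocyte 3.

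Tlr13 (10601385), the endosomal sensor of bacterial ribosomal RNA, read 5.07, 5.44, 6.28 and 4.82 on hemophagocytes 2, 3, 5 and 6. On resting macrophages 3, 4, 5 and 6 it read 4.88, 4.72, 5.09 and 4.96. Hemophagocytes 3 and 5 lay above every resting array, while hemophagocytes 2 and 6 lay within the resting range. The means were 5.40 ± 0.64 and 4.91 ± 0.16 (n = 4 each). The spread among hemophagocytes was 4.03 times that among resting macrophages, where the median ratio over all genes was 1.19. That ratio was 3.48 for Tlr2 and 3.09 for Tlr7, and from 0.49 (Traf6) to 1.79 (Tlr9) for the other members. The difference in Tlr13 was 0.49 (SE 0.25, limma adjusted p = 0.75, 95% interval -0.07 to 1.05), and 1.06% of all genes had a larger absolute difference. An exact two-sided permutation test of the 8 arrays gave p = 0.20. Without hemophagocyte 5 the difference was 0.20, without hemophagocyte 3 it was 0.48, and without hemophagocytes 3 and 5 together it was 0.03. The same arrays had the highest macrophage marker means, 7.47 and 8.07. On hemophagocyte 3 Cd68 read 9.66, Lyz2 9.95 and C1qc 8.57. Csf1r (6.32), Adgre1 (5.76), Itgam (6.55) and Mertk (5.65) lay there within the range of the other arrays. The red pulp macrophage mean was 6.19 on hemophagocyte 3 and 6.54 on hemophagocyte 5, against 6.18 to 6.36 elsewhere. Hemophagocytes 3 and 5 also had the highest platelet marker means, 7.32 and 7.12, against 6.53 to 6.91 on the other arrays. That came from Pf4 alone (10.35 and 9.11), while Ppbp was lowest of all on hemophagocyte 3 at 4.80. The neutrophil marker mean was highest on hemophagocyte 3, at 6.71 against 6.29 to 6.45 elsewhere, with S100a8 at 8.02 and S100a9 at 9.12. The plasmacytoid dendritic cell mean was 6.95 and 6.94 on hemophagocytes 3 and 5, against 6.80 to 6.92 elsewhere. Marker means of B, T and NK cells, conventional dendritic cells and erythroid cells were highest on other arrays. The part of macrophage or other RNA content in the Tlr13 values was not tested. Tlr13 on hemophagocyte 5 was the single case, over 9 genes and 8 arrays, of a value that exceeded the 8-array median by over 1 log2 unit.

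**Figure D2:**
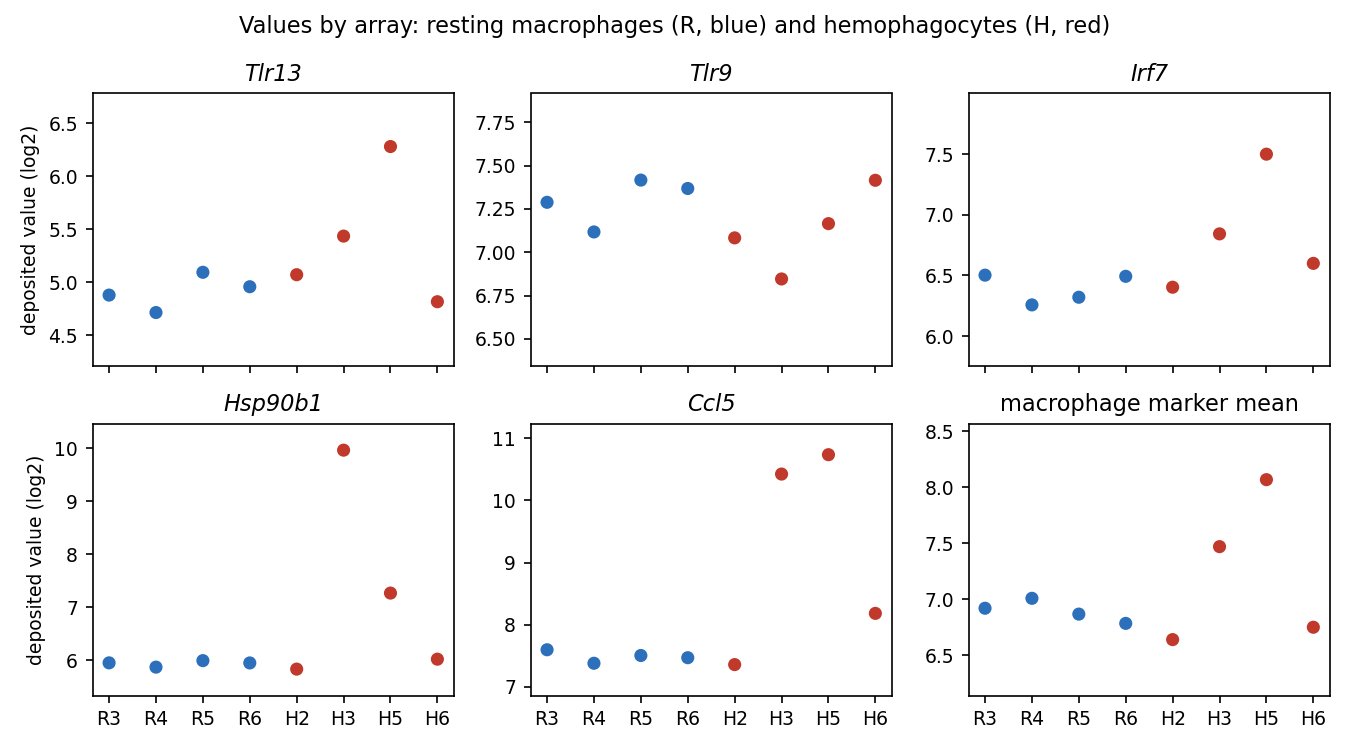
Deposited log2 values of Tlr13, Tlr9, Irf7, Hsp90b1 and Ccl5 and the mean of the measured macrophage markers on each array, resting macrophages (R) in blue and hemophagocytes (H) in red, with replicate numbers on the x axis; each panel has its own y range. Hemophagocytes 3 and 5 are the highest arrays for Tlr13, Irf7, Hsp90b1, Ccl5 and the marker mean, but not for Tlr9, where hemophagocyte 3 is the lowest at 6.85.

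Of the cell surface receptors, Tlr2 (10498992), which binds bacterial lipoproteins, read 6.55, 6.25, 6.69 and 6.40 on hemophagocytes 2, 3, 5 and 6, and 6.52, 6.51, 6.40 and 6.47 on resting macrophages 3, 4, 5 and 6. The hemophagocyte values lay on both sides of the resting range. Their means were 6.47 ± 0.19 and 6.47 ± 0.05 (n = 4 each), and the difference was -0.003 (SE 0.09, limma adjusted p = 1.00; 95% interval -0.21 to 0.21). Tlr4 (10505517), the lipopolysaccharide receptor, read 4.46, 4.70, 4.87 and 4.58 on hemophagocytes and 4.41, 4.74, 4.94 and 4.98 on resting macrophages, in the same order of arrays. The hemophagocyte values lay within the resting range, and the difference was -0.11 (SE 0.13, limma adjusted p = 0.86; 95% interval -0.40 to 0.18). Single arrays moved it by more than 1.5 times, from -0.23 without resting macrophage 3 to -0.04 without resting macrophage 6, and it was also -0.05 without hemophagocyte 2, -0.19 without hemophagocyte 5 and -0.06 without resting macrophage 5. Without hemophagocytes 3 and 5 together it was -0.24. Between 11.4% and 18.2% of the background genes lay below Tlr4 on each array.

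The chaperones did not pass either. Unc93b1 (10460237), which escorts the nucleic acid sensing receptors from the endoplasmic reticulum to endosomes, read 6.79, 6.91, 6.86 and 6.79 on hemophagocytes 2, 3, 5 and 6, and 6.77, 6.99, 6.95 and 6.80 on resting macrophages 3, 4, 5 and 6. All 4 hemophagocyte values lay inside the resting range. Its difference was -0.04 (SE 0.07, limma adjusted p = 0.92), and the 95% interval ran from -0.20 to 0.13. Cnpy3 (10451458), an endoplasmic reticulum protein needed for the folding of several Toll-like receptors, read 6.98, 7.30, 6.99 and 7.28 on hemophagocytes and 7.12, 6.89, 7.17 and 7.17 on resting macrophages. Hemophagocytes 3 and 6 were above all resting arrays and the other two were among them. The difference was 0.05 (SE 0.10, limma adjusted p = 0.92; 95% interval -0.17 to 0.28).

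Myd88 (10597648), the adaptor that all 5 of these receptors use, read 5.29, 5.06, 5.69 and 5.53 on hemophagocytes 2, 3, 5 and 6, and 5.16, 5.31, 5.49 and 5.77 on resting macrophages 3, 4, 5 and 6. Both groups spread over about the same range, 0.64 and 0.61 log2 units. The difference was -0.04 (SE 0.15, limma adjusted p = 0.97; 95% interval -0.38 to 0.31).

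Traf6 (10474112), the ubiquitin ligase that passes the signal from the IRAK kinases to the kinase TAK1, read 6.26, 6.24, 6.19 and 6.30 on hemophagocytes 2, 3, 5 and 6. On resting macrophages 3, 4, 5 and 6 it read 6.15, 6.18, 6.02 and 5.98. The lowest hemophagocyte value, 6.19, lay just above the highest resting value, 6.18. Such separation was seen upward in 0.802% and downward in 2.90% of all genes, and in 1 and 0 of the 9 measured members. The means were 6.25 ± 0.05 and 6.08 ± 0.10 (n = 4 each). The difference was 0.16 (SE 0.07; limma unadjusted p = 0.047, adjusted p = 0.75; 95% interval 0.003 to 0.32), a ratio of 1.12, higher in 4 of 4 hemophagocyte arrays. The exact two-sided permutation p was 0.029, the smallest that 8 arrays can give. It follows from the lack of overlap and adds nothing to it. The difference stayed between 0.13 and 0.20 in the 17 alternative settings that tested Traf6, with adjusted p between 0.59 and 0.97 in limma. The unadjusted call did not hold throughout: with the robust prior, with array background as covariate, without hemophagocyte 2 or 3, without resting macrophage 5 or 6, and without hemophagocytes 3 and 5 together, 0 of the 9 members had an unadjusted p under 0.05. It was 0.19 without hemophagocytes 3 and 5, unlike that of Tlr13.

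**Figure D3:**
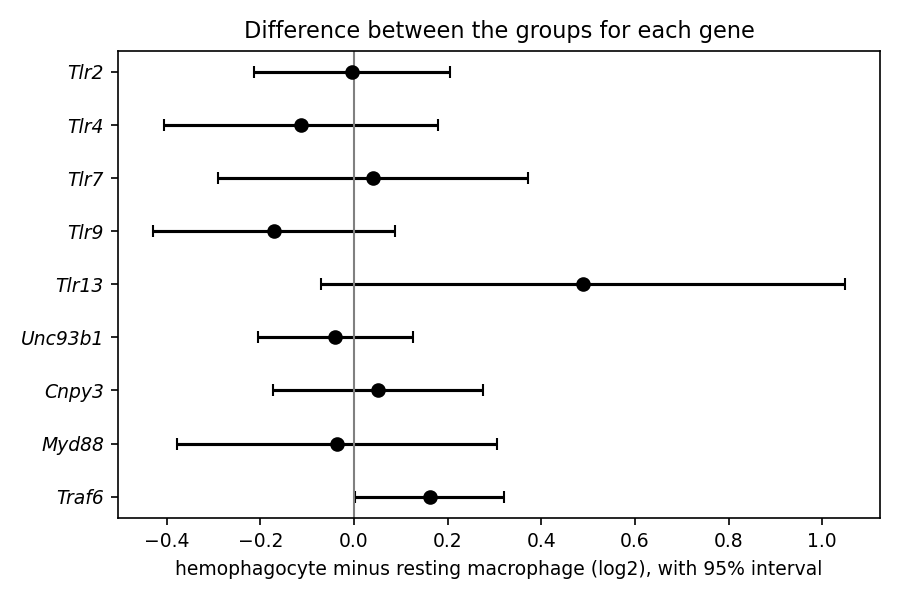
Difference between hemophagocytes and resting macrophages for each measured gene (log2, point) with its 95% interval from limma (bar), 4 arrays per group. The intervals of all genes but Traf6 include 0, and that of Traf6 starts at 0.003; none passed after adjustment over all genes.

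Correlations between members were spread around 0. Among their 36 pairs the Pearson correlation over the 8 arrays had a median of 0.03, from -0.76 for Tlr2 with Cnpy3 to 0.67 for Tlr4 with Myd88; these points share the arrays, their labelling and their background. The genes whose profile over the 8 arrays was most like that of Tlr9 were Pclo, which encodes a presynaptic scaffold protein (Pearson r = 0.98, Spearman rho = 0.86), Aph1c, a gamma-secretase subunit (0.97 and 0.93), and Zdbf2, an imprinted gene (0.97 and 0.98). Among 16835 genes compared, 89 had r above 0.9 with Tlr9. How many would do so by chance over 8 arrays was not tested, nor was the part of array background.

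The rest of the pathway was read from 125 further genes in 8 groups by role, of which 117 were measured. None of the 117 passed the threshold (0 of 117 in limma). At an unadjusted p under 0.05, 6 were higher (5.13%, against 1.53% of all genes) and 0 were lower (against 5.05%). Without hemophagocytes 3 and 5 there was 1 higher (0.855%, against 1.98% of all genes in that setting) and 2 were lower (1.71%, against 2.73%). Single arrays moved the count of 6 as well, to 3 without resting macrophage 6 (2.56%, against 1.21% of all genes) to 11 without hemophagocyte 6 (9.40%, against 1.84%) and to 11 without hemophagocyte 2 (where 299 of all 19938 genes were higher). With the replicate number as a block 13 were higher (11.1%, against 1.83%). The median difference was -0.001, and 58 of 117 (49.6%) lay above 0, against 36.1% of all genes. Scaling moved the split over all genes at that p, which was 306 higher against 1006 lower as deposited. It became 488 against 748 with quantile normalization, 495 against 691 with arrays centred on their medians, and 611 against 549 with cyclic loess. The 117 pathway genes then gave 6, 8 and 9 higher and 0 lower.

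**Figure D4:**
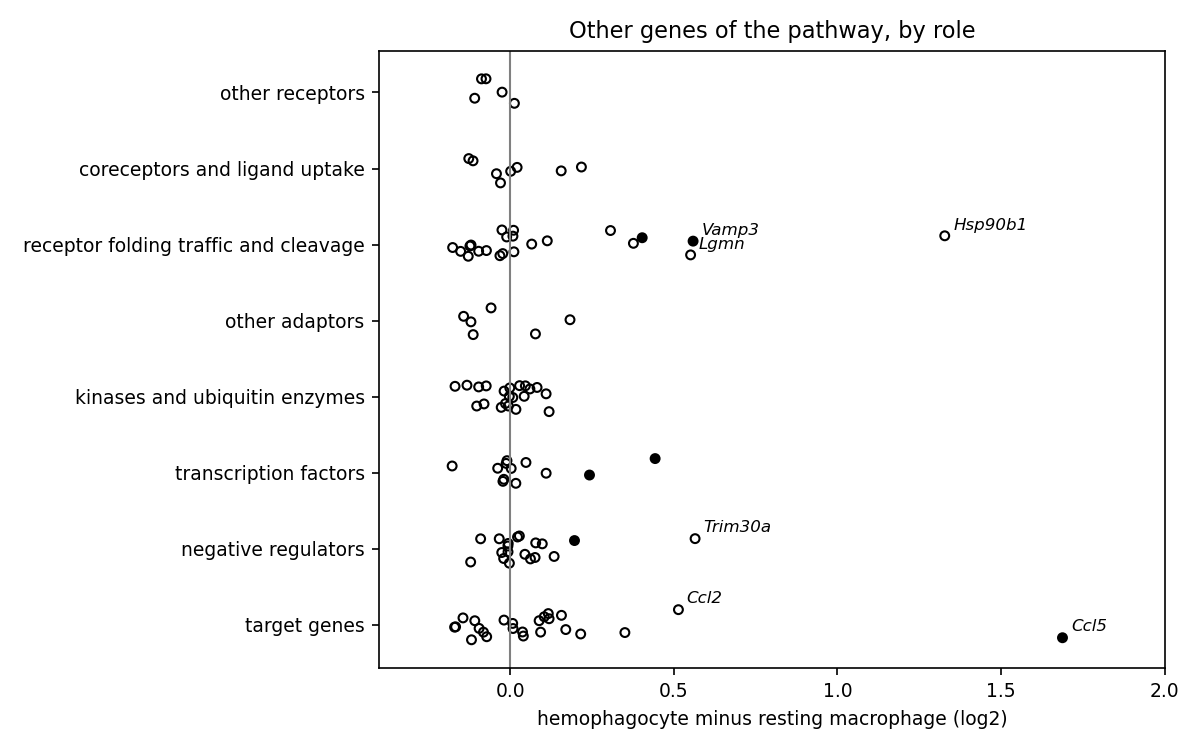
Difference between hemophagocytes and resting macrophages (log2) for the 117 other measured pathway genes, one point each, by role; filled points have an unadjusted p under 0.05 and names mark differences above 0.5. Most points lie close to 0.

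A few pathway genes were much higher on some hemophagocyte arrays. Differences above 0.5 were seen in 6 of 117 genes (0.888% of all genes) and below -0.5 in 0 (0.120% of all genes); these 6 were singled out after their values were seen. They were the chaperone Hsp90b1, the endosomal protease Lgmn, the vesicle protein Vamp3, the negative regulator Trim30a, and the chemokines Ccl2 and Ccl5. In all 6 the highest array was hemophagocyte 3 or 5, as in 148 of the 177 genes of the whole table above 0.5; over all genes the highest array was one of these in 18.8%.

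Receptor folding and traffic held 22 measured genes. By an unadjusted p under 0.05, 2 of them were higher and 0 lower, against 1.53% and 5.05% of all genes. Hsp90b1, the endoplasmic reticulum chaperone that works with Cnpy3 on Toll-like receptors, read 9.96 on hemophagocyte 3 and 7.27 on hemophagocyte 5. On hemophagocytes 2 and 6 it read 5.84 and 6.02, and on resting macrophages 5.87 to 6.00. Its difference of 1.33 (SE 0.71) therefore came from 2 arrays, and Cnpy3 on the same arrays read 7.30 and 6.99. Vamp3, a SNARE of recycling endosomes, read 6.60, 6.71, 7.40 and 6.60 on hemophagocytes 2, 3, 5 and 6 and 6.09 to 6.37 on resting arrays, without overlap, with a difference of 0.56 (SE 0.16, limma adjusted p = 0.75). That difference was 0.37 without hemophagocyte 5 and 0.33 without hemophagocytes 3 and 5. The cathepsin Ctsl, an endosomal protease that can cleave TLR9, had a difference of 0.40 (SE 0.15), and Ap3d1, of the adaptor complex that sorts endosomal cargo, one of -0.18 (SE 0.08). Legumain, Lgmn, another protease of receptor cleavage, read 7.22 and 6.93 on hemophagocytes 3 and 5 and 5.82 to 6.12 on the other 6 arrays.

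The other receptors were close to 0, with 1 of 5 measured above it (20%, against 36.1% of all genes). Tlr12 (-0.11), Tlr8 (-0.09) and Tlr3 (-0.07) had the smallest p values and did not pass. Of 8 coreceptors, Ly86, the partner of the receptor-like protein RP105, had a difference of 0.22. Cd14, which hands lipopolysaccharide to TLR4, had one of 0.16, and Ly96, the lipopolysaccharide-binding partner of TLR4, one of -0.13. Among 6 adaptors Ticam2, which links TLR4 to TRIF, stood at 0.18, Scimp at -0.14 and Ticam1, which encodes TRIF, at -0.11. Of 21 kinases and ubiquitin enzymes 0 had an unadjusted p under 0.05, where 1.53% of all genes were higher and 5.05% lower. Peli2 stood at -0.17, Mapk8 at -0.13 and Dock2 at 0.12. None of these genes passed in limma.

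Of 12 transcription factors, 2 had an unadjusted p under 0.05, both higher, where 1.53% of all genes were higher and 5.05% lower. Atf3, a stress-induced factor that dampens Toll-like receptor output, had a difference of 0.24 (SE 0.10). Irf7, which drives type I interferon transcription below TLR7 and TLR9, had one of 0.44 (SE 0.19). It read 6.40, 6.84, 7.50 and 6.60 on hemophagocytes 2, 3, 5 and 6 and 6.26 to 6.50 on resting arrays, so that hemophagocyte 5 again stood highest, and the difference was 0.22 without that array and 0.11 without hemophagocytes 3 and 5. Both had a limma adjusted p of 0.75, and Rela, an NF-kappaB subunit, stood at -0.18. Of 19 negative regulators, Nfkbib, an inhibitor of NF-kappaB, was higher without overlap at 0.20 (SE 0.08, limma adjusted p = 0.75). Nfkbia, a related inhibitor and itself an NF-kappaB target, stood at 0.13 and the phosphatase Dusp1 at -0.12. The interferon-induced Trim30a read 8.62 on hemophagocyte 5 and 6.33 to 6.75 on the other 7 arrays.

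Among 24 measured target genes, 15 lay above 0 (62.5%, against 36.1% of all genes). At an unadjusted p under 0.05, 1 was higher (Ccl5) and 0 were lower, where 1.53% of all genes were higher and 5.05% lower. Ccl5, a chemokine for T cells, had a difference of 1.69 (SE 0.63, limma adjusted p = 0.75), with 10.42 and 10.74 on hemophagocytes 3 and 5, 7.36 and 8.18 on hemophagocytes 2 and 6, and 7.38 to 7.60 on resting arrays. Without hemophagocytes 3 and 5 it was 0.28. Ccl3, a chemokine of activated macrophages, stood at 0.35 (0.21 without hemophagocyte 5) and Il12a, a subunit of interleukin 12, at -0.17. Tnf, Il6 and Il12b, cytokines that CpG DNA classically induces, are named here although they fall outside the rule for named genes. Their differences were -0.12 (SE 0.08), 0.04 (SE 0.11) and -0.07 (SE 0.08), and none passed. Each lay above the 95th percentile of the background genes on 0 of 8 arrays. Only 1.93% to 7.48% of the background genes lay below Il6. Signal near array background therefore limits what these differences show.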

How the data were processed

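The authors deposited 1 log2 value per probe set and array. That the scale is log2 was judged from the range, and the submitters' processing notes name Affymetrix Expression Console 1.1. The sources used here give no background correction, probe summary, normalization or genome build, so coordinates are left out. Values were used without further scaling, and 4 arrays per group limit the precision. Of 35556 probe sets, the platform annotation gave 1 symbol for 21789, several for 1621 and none for 12146. Only single-symbol probe sets were used, and the one of highest mean over the 8 arrays stood for its gene, which left 19938 genes.

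Groups and replicate numbers came from the sample titles. The group difference was fitted for every gene with lmFit and eBayes of limma 3.58.1 (R 4.3.3), without a block. P-values were two-sided and adjusted by Benjamini-Hochberg across the 19938 genes, with 0.05 as the threshold. The script was tested on simulated data. Intervals are limma's 95% intervals. Deviations from the group means correlated across genes at 0.17, 0.07 and 0.12 for the arrays numbered 3, 5 and 6 in both groups. Between arrays of unlike number in the 2 groups they ran from -0.24 to 0.18. The numbers were not taken to pair the arrays, since the labels do not say that a number marks a shared animal or day. Of the 3 correlations, 1 was not over 0.1, which does not decide whether the arrays are paired.

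Members and lists (8 pathway roles and 10 marker lists) were chosen with earlier results of these data known, so counts over them are descriptions. Named genes were all members, the up to 3 genes of smallest p in each role, and, for description only, the 3 genes most correlated with Tlr9 (predicted genes, genes not protein-coding in RefSeq GRCm38.p6, and olfactory and vomeronasal receptors left out). The alternatives covered the 9 measured members and the 24 genes named by role, not those last 3. Of 82 measured markers over the 10 lists, 0 passed. By an unadjusted p under 0.05, 2 were higher and 2 lower, against 1.53% and 5.05% of all genes. The 18 alternative settings comprised quantile, median and cyclic loess scaling, a filter on dim genes, a robust prior with an intensity trend, weights per array, averaging a gene's probe sets, each array left out, hemophagocytes 3 and 5 left out, array background as covariate, and the replicate block.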

Additional observations from a re-analysis of the deposited data

Results flagged for a closer look

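Of 66 groups of 4 arrays examined for a value far from the other 3 (the 9 measured members and 24 genes named by role, in both groups), 2 stood out by Dixon's criterion, where chance alone flags about 1 in 20. Neither concerned a listed member. Vamp3 read 7.40 on hemophagocyte 5 and 6.60 to 6.71 on the other hemophagocytes. Ticam1 read 6.996 on resting macrophage 3 and 7.28 to 7.34 on the other resting arrays. Tlr13 on hemophagocyte 5 did not meet the criterion.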

How the results depend on the processing

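In all 18 settings 0 members and 0 of the other pathway genes passed. The 9 measured members and 24 genes named by role gave 582 alternative values, of which 36 changed sign and 0 passed. Genes called over the whole table went from 2 to 1 with median centring, cyclic loess, the intensity trend and robust prior, or array background as covariate, to 7 with the replicate block, and to between 1 and 11 when single arrays were left out. Tlr13 and Traf6 kept their sign in every setting run. Tlr2 turned to 0.020 with quantile normalization, 0.024 with median centring, 0.031 with cyclic loess, 0.014 with array weights, 7.9e-04 without hemophagocytes 3 and 5 and 0.10 with the background covariate. Myd88 turned to 0.0045 with quantile normalization, 0.0050 with cyclic loess, 0.023 with array weights and 0.25 with the covariate. The covariate also turned Tlr4 (0.0055), Tlr9 (0.0011), Cnpy3 (-0.018), Tlr12 (0.034), Tlr8 (0.0066), Tlr3 (0.16), Ly96 (0.036) and Scimp (0.046). The replicate block turned Unc93b1 (0.013) and Tlr12 (0.023). Leaving out hemophagocytes 3 and 5 turned Tlr7 (-0.10), Ticam2 (-0.053) and Rela (0.019). With single arrays left out, Tlr2 ran from -0.075 to 0.071, Tlr7 from -0.049 to 0.21, Cnpy3 from -0.014 to 0.10, Myd88 from -0.14 to 0.076, Tlr12 from -0.19 to 0.0013, Tlr8 from -0.15 to 0.013 and Tlr3 from -0.18 to 0.038. The cause of these changes was not tested. The replicate number was not taken to pair the arrays; blocked, 13 of 117 pathway genes were higher and 1 was lower by unadjusted p (11.1% and 0.855%, against 1.83% and 5.68% of all genes). Members dimmer than the median gene were not tested in the setting without such genes. Signal near array background limits all 9 members.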
